A study of Homo sapiens with 6 samples.

Results

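The SR splicing factors described here are 10 genes, SRSF1 to SRSF7, SRSF9, SRSF10 and SRSF11, among the 57150 genes of a table of mRNA levels. They were picked by gene symbol with a rule that uses no measured value, although earlier results of these data were known when the family was chosen. The cells were labelled K562, a human erythroleukemia line. In 3 libraries the cells had received siRNAs that target both αCP1 and αCP2, the poly(C)-binding proteins that bind C-rich RNA and are encoded by PCBP1 and PCBP2. In 3 further libraries they had received control siRNAs, and RNA was taken 72 h after transfection in all 6 libraries. The table gives 1 FPKM (fragments scaled to transcript length and to the number mapped) and 1 estimated count per gene for each group, under columns labelled KD and CTRL, so differences between the columns have no replicate check and no p-value was computed.

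SR proteins join 1 or 2 RNA recognition motifs (RRMs), which contact RNA, to a tail rich in arginine-serine dipeptides, the RS domain. They bind exonic enhancers and help recruit U1 snRNP and U2AF to the neighbouring splice sites, and heterogeneous nuclear ribonucleoproteins often counter them there. Kinases of the SRPK and CLK families phosphorylate the RS domain, which governs import into the nucleus and release from nuclear speckles. Many SR proteins control their own mRNA by promoting inclusion of a so-called poison exon that carries a premature stop codon, after which the transcript is destroyed by nonsense-mediated decay (NMD). An mRNA level therefore counts together the productive and the poison forms that escape decay.

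The labels were checked on the targeted genes first. PCBP1 had 187.8 FPKM under CTRL and 184.1 under KD, which is a log2 ratio of -0.03. PCBP2 had 342.4 and 530.8, a log2 ratio of 0.63. Neither target was clearly lower in the column labelled KD, so the columns are named by their labels below and no direction is credited to the siRNAs. Of 12 erythroid markers, 6 were listed at 0 in both columns, among them GATA1, TAL1 and KLF1, and only HBE1 was above an FPKM of 5 in both. The summed FPKM of these markers was 43.4 under CTRL and 161.6 under KD. Of 6 epithelial keratin and adhesion markers, KRT8, KRT18 and KRT7 were above an FPKM of 5 in both columns and KRT19 was listed at 0. The adhesion markers were low, with CDH1 at 0.43 FPKM under CTRL and 0.36 under KD, and EPCAM at 3.26 and 3.94. The sums of the list, 3174 and 4358, came mainly from the keratins. The mostly low erythroid markers and the high keratins thus go against the labelled cell line in both columns. HBE1 and the low CDH1 and EPCAM do not, and the part of these markers in the SR values was not tested. Whether the deposited columns hold the labelled libraries could not be settled from the table, and every difference between KD and CTRL below is subject to that limit. The column totals were 11680567 counts under CTRL and 13699340 under KD. Fewer cells of a type and less RNA per cell cannot be told apart in such bulk values.

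All 10 SR genes have an NMD transcript in the annotation, against 48.9% of 11107 expressed protein-coding genes (mean FPKM of 1 or more). In 7 of the 10, the NMD form holds an internal exon whose exact start and end occur in no protein-coding transcript and that a protein-coding transcript skips. Of the protein-coding genes, 25.3% hold such an exon. Parts of such an exon may still lie in a coding transcript's exon with other ends. The exceptions were SRSF1, SRSF5 and SRSF10. The stretches before these exons, where a polypyrimidine tract would lie, are shown because αCPs bind C-rich tracts. Their letters show how much C such a protein would meet. Each sequence is the 50 nt before the longest such exon of a gene, read 5′ to 3′ on the RNA strand of GRCh37, and the capitals mark the AG of the acceptor site. The exon of SRSF2 is left out because its window lies in an exon of a coding transcript.
SRSF3, chr6:36567548-36567597 (+): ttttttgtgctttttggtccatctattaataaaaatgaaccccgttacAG
SRSF4, chr1:29486604-29486653 (-): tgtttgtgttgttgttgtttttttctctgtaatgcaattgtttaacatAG
SRSF6, chr20:42087743-42087792 (+): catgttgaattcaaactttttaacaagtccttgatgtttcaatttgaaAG
SRSF7, chr2:38976489-38976538 (-): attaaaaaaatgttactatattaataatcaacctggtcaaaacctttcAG
SRSF9, chr12:120902626-120902675 (-): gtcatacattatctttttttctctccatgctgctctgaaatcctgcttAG
SRSF11, chr1:70697492-70697541 (+): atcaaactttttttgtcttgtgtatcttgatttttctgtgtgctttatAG

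In each of the 6 windows T outnumbered C, although in that of SRSF7, no clear polypyrimidine tract, A was the most frequent letter. Their share of C ran from 8% before the exon of SRSF4 to 26% before that of SRSF9, with a median of 15%, and their share of T ran from 32% for SRSF7 to 56% for SRSF4 and SRSF11, with a median of 43%. The choice of the longest exon matters for SRSF7: before a shorter form of the same exon, which starts at another acceptor, the 50 nt hold 34% C and 30% T, the 1 window of the 12 in which C outnumbered T. Over all 12 such exons of the SR genes the medians were 17% C and 41% T, beside 20% and 38% over the 4843 such exons of all genes. The C-rich consensus that the study derived was in the 50 nt window of 0 of the 12 exons and of 4.21% of the 4843. In the 250 nt before the exon it was found at 1 of the 12, a further exon of SRSF11 whose window is not shown, and at 16.7% of the 4843. The 6 exons whose windows are shown are 90 to 456 nt long. Their inclusion cannot be read from a table with 1 value per gene, so it was not analysed here.

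SRSF2, a 1-RRM protein that also acts in transcription elongation, was the most abundant SR mRNA in both columns, at 343.2 FPKM in CTRL and 302.7 in KD. SRSF4, a large 2-RRM protein, was the least abundant in both, at 41.0 and 62.3. All 10 genes were well expressed, and their mean levels lay between the 83.2nd percentile (SRSF4) and the 97.2nd percentile (SRSF2) of the 13741 genes whose mean FPKM was 1 or more. In CTRL the order of FPKM from the top was SRSF2, SRSF11, SRSF3, SRSF1, SRSF5, SRSF7, SRSF10, SRSF9, SRSF6 and SRSF4. The neighbours SRSF1 and SRSF5, and SRSF10 and SRSF9, had overlapping 95% Poisson intervals and so had no settled order there. In KD the order was SRSF2, SRSF3, SRSF5, SRSF11, SRSF9, SRSF1, SRSF7, SRSF6, SRSF10 and SRSF4, with overlap between SRSF3 and SRSF5 and between SRSF1 and SRSF7. These intervals cover counting error only, and they treat the estimated counts as raw counts. By FPKM SRSF11 thus ranked above SRSF3 and SRSF5 in CTRL and below both in KD. By counts per annotated kilobase it was below SRSF3 in both columns, so the exchange with SRSF3 was seen by FPKM and not on that scale.

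**Figure D1:**
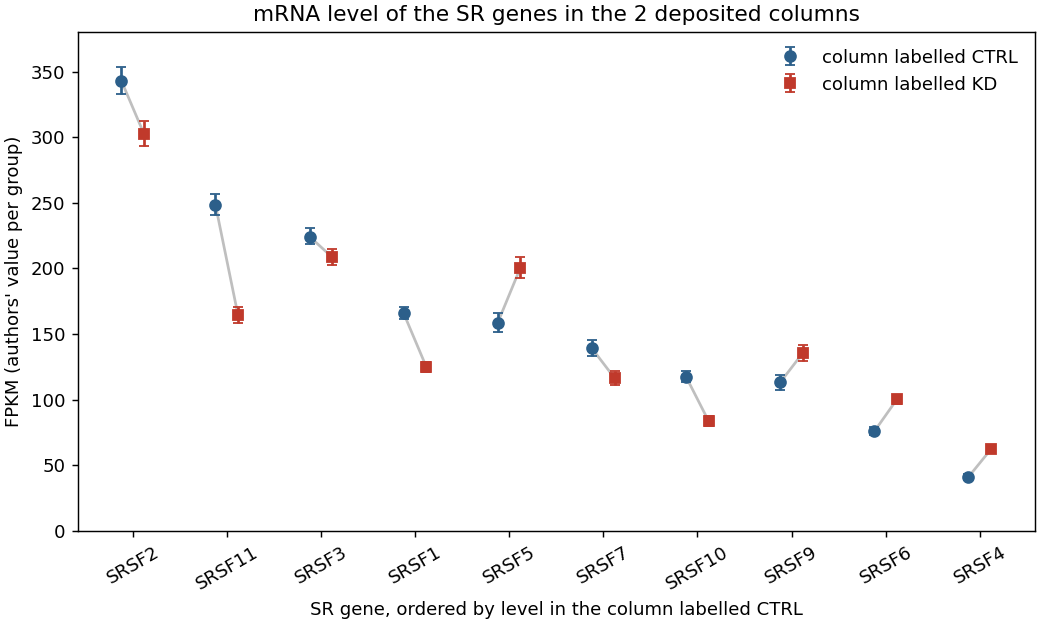
FPKM of each SR gene (vertical axis) in the column labelled CTRL (circles) and the column labelled KD (squares), 1 authors' value per group, with bars for 95% Poisson intervals of the counts (counting error only) and a line joining the pair. SRSF2 is the highest gene in both columns and SRSF4 the lowest, and 4 of the 10 lines climb from CTRL to KD while 6 descend.

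The 10 genes together summed to 1499 FPKM in KD and 1627 in CTRL, so the sum over KD was 92.1% of that over CTRL. Read as counts, they held 28508 of the counts in KD (0.208%) and 30599 in CTRL (0.262%). The sum hides shifts in both directions: 4 genes were higher in KD, 6 were lower, and the median log2 ratio was -0.14. The log2 ratio here is that of FPKM + 1, KD over CTRL. Its bracketed 95% interval is the exact binomial interval of the estimated counts in KD and CTRL, shifted to the FPKM scale. It treats those estimates as raw counts, although both column totals are below the mapped pairs the study gives for each single library. All 10 intervals left out 0, but with 1 value per group this says nothing of the spread between libraries.

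Among the 2-RRM proteins, SRSF4 had the highest log2 ratio of the 10, at 0.59 (0.49 to 0.71), from 1098 counts in CTRL and 1701 in KD. Its FPKM was 1.5-fold higher in KD. SRSF6, a close relative of SRSF4 with the same architecture, had 75.8 FPKM in CTRL and 100.2 in KD, a log2 ratio of 0.40 (0.33 to 0.48). SRSF5, which belongs with these related proteins, had 158.7 and 200.5, a log2 ratio of 0.34 (0.25 to 0.42). The related trio was thus higher in KD throughout. SRSF9, a short 2-RRM protein, had 113.1 in CTRL and 135.6 in KD, a log2 ratio of 0.26 (0.16 to 0.36). SRSF1, the founding SR protein, known as ASF/SF2 and as a proto-oncogene, went the other way, from 165.8 in CTRL to 125.0 in KD, a log2 ratio of -0.40 (-0.47 to -0.35). It was the only 2-RRM gene with a lower FPKM in KD.

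SRSF2, SRSF3 and SRSF7, the 3 genes grouped here as 1-RRM proteins, had ratios from -0.25 to -0.10, all below 0. SRSF3, the smallest SR protein and an adaptor for mRNA export, had 224.3 FPKM in CTRL and 208.5 in KD, the smallest difference of the 10 at a log2 ratio of -0.10 (-0.16 to -0.05). SRSF2 had a log2 ratio of -0.18 (-0.24 to -0.12) on 4308 and 3985 counts. SRSF7, which carries a zinc knuckle beside its RRM and also serves mRNA export, had 139.0 and 116.4, a log2 ratio of -0.25 (-0.35 to -0.17). These 3 genes summed to 706.5 FPKM in CTRL and 627.6 in KD.

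SRSF10 and SRSF11, kept here as a separate group whose number of RRMs was not used, had the lowest ratios. SRSF10, which in its dephosphorylated form acts as a general splicing repressor, had 117.4 FPKM in CTRL and 83.5 in KD, a log2 ratio of -0.49 (-0.57 to -0.41). SRSF11, also known as p54, had 248.6 and 164.4, a log2 ratio of -0.59 (-0.67 to -0.52), and was 1.51-fold higher in CTRL. Its share of all SR FPKM was 15.3% in CTRL and 11% in KD, the largest loss of share among the 10. The largest gain by FPKM was that of SRSF5, from 9.76% to 13.4%. With counts divided by column totals its log2 ratio was 0.01, below that of SRSF6 at 0.23, so this ranking depends on the unit.

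By architecture, the 5 genes with 2 RRMs held 34.1% of SR FPKM in CTRL and 41.6% in KD, with sums of 554.4 and 623.6. The other 5 held 65.9% and 58.4%, with sums of 1072 and 876. Of the 2-RRM genes 4 were higher in KD and 1 was lower, with a median log2 ratio of 0.34. Of the other 5 none was higher in KD, and their median was -0.25. The contrast was weaker by counts over column totals, where 3 of the 2-RRM genes were higher and 2 lower with a median of 0.01, and the other 5 were all lower with a median of -0.36. After removal of a trend in GC and length the medians were 0.42 and -0.14, and 1 of the other 5, SRSF3, was higher. SRSF8, which shares the SRSF name and is described below with the SR-like proteins, was placed in neither group. It was higher in KD, with a log2 ratio of 0.47 (0.32 to 0.69), or 0.05 by counts over column totals. The split by architecture is thus stated only for the genes grouped here. The genes within a group were not replicates of a condition, and the difference between the groups was not tested.

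The counts of SR genes past a threshold were near those of all genes. Of the 13741 genes, 22.6% had a log2 ratio of at least 0.5 and 16.1% one of at most -0.5. Among the SR genes 1 of 10 was past 0.5 in each direction, SRSF4 and SRSF11. No SR gene had a ratio past 1 in either direction, and 8.51% of all genes were higher in KD by at least 1 and 3.27% lower. Between the quartiles of all genes, -0.34 and 0.45, lay 6 of the 10 SR genes, with SRSF4 above and SRSF1, SRSF10 and SRSF11 below. The median of all genes was 0.01. The 2307 genes at least as abundant by mean FPKM as SRSF4, a limit chosen after the values were seen, had a higher median of 0.18, and 63.5% of them had ratios above 0, against 4 of the 10 SR genes. Of those 2307 genes, 32.2% were higher by at least 0.5 and 8.11% lower, and 13% and 1.3% were so by at least 1.

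The unit moved some of the ratios. With each count divided by its column total, an alternative to FPKM, the ratios of all 10 SR genes were lower by 0.10 to 0.32 and the median of all genes was -0.21. On that scale 3 SR genes were higher in KD and 7 lower, with a median of -0.34. SRSF9 changed sign, to -0.04 (-0.14 to 0.06), and SRSF5 stood at 0.01 (-0.07 to 0.10), so counting error alone covers 0 for both. SRSF4 and SRSF6 stayed above 0 at 0.40 and 0.23. SRSF1, SRSF10 and SRSF11 stood at -0.60, -0.77 and -0.85, and these 3 were past -0.5, as were 31.7% of all genes on that scale. Past 0.5 were 0 SR genes and 17.8% of all genes.

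**Figure D2:**
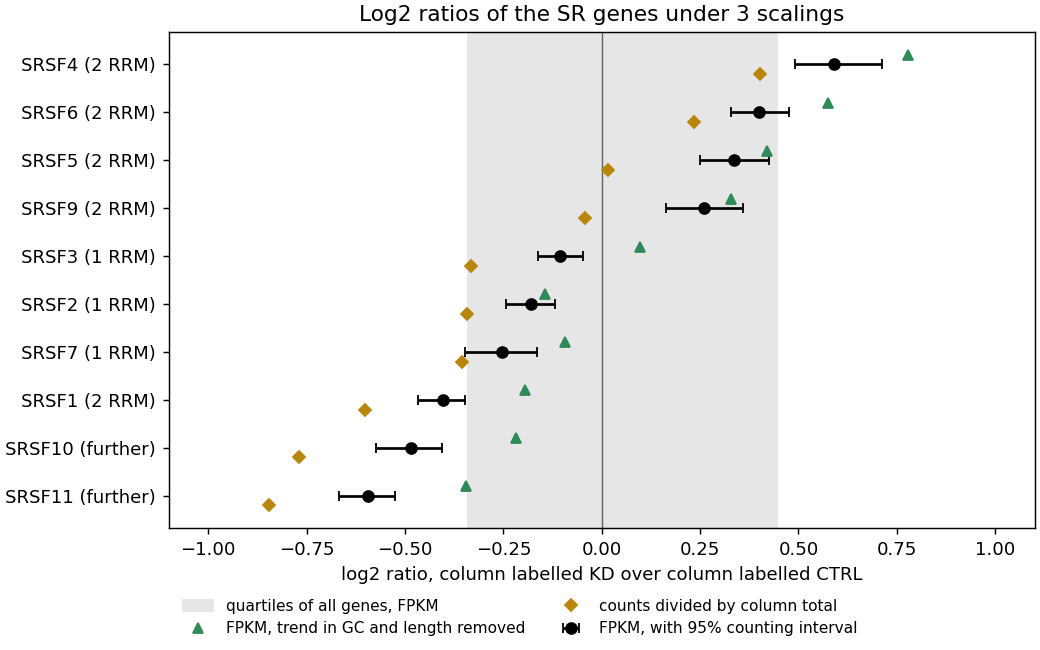
Log2 ratio, KD over CTRL, of each SR gene (rows) on 3 scales. Black points are from FPKM + 1, with bars for 95% counting intervals. Diamonds are from counts divided by the column total, and triangles from FPKM after removal of a trend in GC and length. Rows carry the number of RRMs, except those of SRSF10 and SRSF11, which are marked further. The grey band holds the quartiles of all genes by FPKM, -0.34 to 0.45. SRSF4 is highest and SRSF11 lowest on all 3 scales, and the sign differs between scales for SRSF3 and SRSF9.

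GC content moved with the ratios across the table. Over 13298 genes with annotated exons the Spearman correlation of the log2 ratio with exon GC content was 0.45, given as a description without a p because all genes share the same libraries. All 10 SR genes were below the median GC content of 47.8%, and 7 were below the lower quartile of 42.0%. SRSF10 at 37% and SRSF11 at 37.2% had the lowest GC content of the 10 as well as the lowest ratios. SRSF2 had the highest, 46.5%. Beside genes of like GC content, in 10 bins of about 1330 genes each, SRSF4, SRSF6 and SRSF5 were above the upper quartile, at the 92.9th, 90.2nd and 83.4th percentiles. SRSF11 was below the lower quartile, at the 22.5th percentile, and the other 6 lay between. After a trend in GC and length was removed, 5 SR genes were above 0 and 5 below, with a median of 0.00. SRSF3 changed sign, to 0.10. SRSF4 then stood at 0.78 and SRSF6 at 0.57, the 2 SR genes past 0.5, as were 16.1% of genes. SRSF11 stood at -0.34, and 0 SR genes were past -0.5, against 16.3% of genes.

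**Figure D3:**
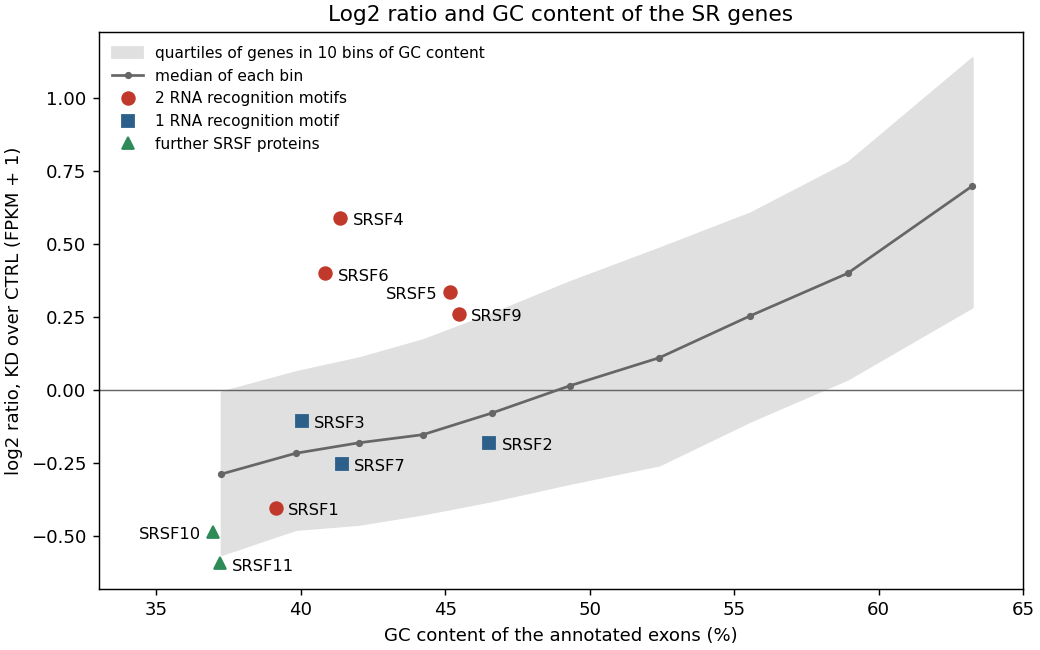
Log2 ratio of FPKM + 1, KD over CTRL (vertical axis), against GC content of the annotated exons in percent (horizontal axis) for the 10 SR genes, with shapes for their architecture. The line and band are the median and quartiles of all genes in 10 bins of GC content; the bin medians run from -0.29 to 0.70. SRSF4, SRSF6 and SRSF5 lie above the band and SRSF11 below it, and SRSF9, at the 74.7th percentile of its bin, sits at the edge.

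Overlapping genes touch SRSF9, SRSF2, SRSF1 and SRSF6. The library kit did not mark strand, so reads from overlapping genes cannot be told apart where exons are shared. SRSF9 (chr12:120899475-120933749 in the annotation) shares 1725 exon bases with GATC on the opposite strand. GATC had 12.2 FPKM in KD and 26.0 in CTRL, the opposite direction to SRSF9. It also shares 124 with NRAV on its own strand, which had 11.4 FPKM in KD and 8.65 in CTRL, the same direction as SRSF9. SRSF2 (chr17:74730197-74733415) shares 823 with MFSD11, also on the opposite strand, at 9.65 and 14.7. SRSF1 (chr17:56078280-56084707) shares 1890 with ENSG00000266086 on its own strand, which had 0.50 and 3.41 FPKM. These partners had lower FPKM than the SR genes they overlap. By counts GATC was not small beside SRSF9, with 619 in CTRL and 293 in KD against 1586 and 1805. How far shared reads enter the SRSF9 ratio was not tested. SRSF6 shares 654 with ENSG00000288000 on its own strand, for which no value was used here. The table also lists 3 SRSF pseudogenes, none above 0.711 FPKM. SRSF4 (chr1:29474255-29508412) and SRSF11 (chr1:70671365-70718735), the outermost genes on every scale, share no exon bases with another annotated gene.

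Kinases of SR proteins ranged on both sides of 0, with 5 of 9 above 0 and a median log2 ratio of 0.03. CLK3, a nuclear kinase that releases SR proteins from speckles, had 17.7 FPKM in CTRL and 41.6 in KD, a log2 ratio of 1.19. SRPK3, the muscle-type SRPK, was low in both columns at 1.22 and 2.49, a log2 ratio of 0.65 on 24 and 49 counts. PRPF4B, a kinase of the tri-snRNP, had 37.7 and 23.6, a log2 ratio of -0.66. The ubiquitous cytoplasmic kinases SRPK1 and SRPK2 stood at -0.24 and -0.29, within 0.5 of 0. CLK1 and CLK2 stood at 0.25 and 0.45, and CLK4 at 0.03. Among the 5 genes of import, export and dephosphorylation the median was 0.21, and PPP1CA, a catalytic subunit of protein phosphatase 1, was past 0.5 at 0.53, with 104.3 in CTRL and 151.2 in KD. With the GC and length trend removed, PPP1CA stood at -0.07, SRPK3 at 0.09 and PRPF4B at -0.41, all inside 0.5. TNPO3, the importin of SR proteins, stood at 0.21, and NXF1, the mRNA export receptor to which SR adaptors bind, at 0.43.

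Most SR-like and SR-related proteins listed here carry RS domains but differ from the classical family in architecture or role. The list also holds SRSF8 and SRSF12, which share the SRSF name with the 10 members. SRSF8 had 11.9 FPKM in CTRL and 16.9 in KD, a log2 ratio of 0.47 (0.32 to 0.69). Of 19 listed, 17 passed the filter, with 7 above 0, 10 below and a median log2 ratio of -0.10. TRA2A, which with TRA2B binds purine-rich enhancers, had 77.4 FPKM in CTRL and 33.2 in KD, a log2 ratio of -1.20, and TRA2B had 140.1 and 110.2, a log2 ratio of -0.34. RNPS1, a partner of the exon junction complex, went the other way with 78.5 and 165.8, a log2 ratio of 1.07. SCAF1 had 4.05 and 13.7, a log2 ratio of 1.54 that became 0.58 with the GC and length trend removed. SCAF11 and SCAF8 stood at -0.73 and -0.57, and at -0.46 and -0.49 with that trend removed. These 5 genes were the list's members past 0.5. SRRM2, the scaffold of nuclear speckles, was the most abundant of the list at 493.6 FPKM in CTRL and 668.9 in KD, a log2 ratio of 0.44. SRSF12, at 0.155 and 0.227 FPKM, did not pass the filter. LUC7L2 was listed at 0 in both columns under the gene identifier used here, and its reads may lie under another row.

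The partners that SR proteins help to recruit showed the widest range. U2AF2, which encodes the large U2AF subunit that binds the polypyrimidine tract, had 85.3 FPKM in CTRL and 13.0 in KD, on 2393 and 351 counts, a log2 ratio of -2.63. This difference stands beside the label check above, where neither siRNA target was clearly lower. U2AF1, the small subunit that reads the acceptor AG, had 69.4 and 117.0, a log2 ratio of 0.75 that became 0.34 by counts over column totals. SNRNP70, the U1 protein that contacts SR proteins, had 90.6 and 141.1, a log2 ratio of 0.63 that became 0.07 with the GC and length trend removed. ZRSR2, a relative of U2AF1, stood at 0.42. Of the 5 antagonists, HNRNPA1, which counters SRSF1 at splice sites, was past 0.5 at 0.87, with 468.9 in CTRL and 859.0 in KD. HNRNPA2B1 had 1445 and 1023, a log2 ratio of -0.50 just inside the limit. Its counts were higher in KD, at 17040 in CTRL and 18774 in KD, and their share gave a log2 ratio of -0.09, so its FPKM per count shifted by -0.64, beyond the 5th percentile of -0.32 among genes with at least 100 counts. The median of the antagonists was 0.10. Of the genes named as past 0.5 in these lists, CLK3, TRA2A, RNPS1, SCAF1, U2AF2 and HNRNPA1 were so on all 3 scales. None of these lists was tested as a set.

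**Figure D4:**
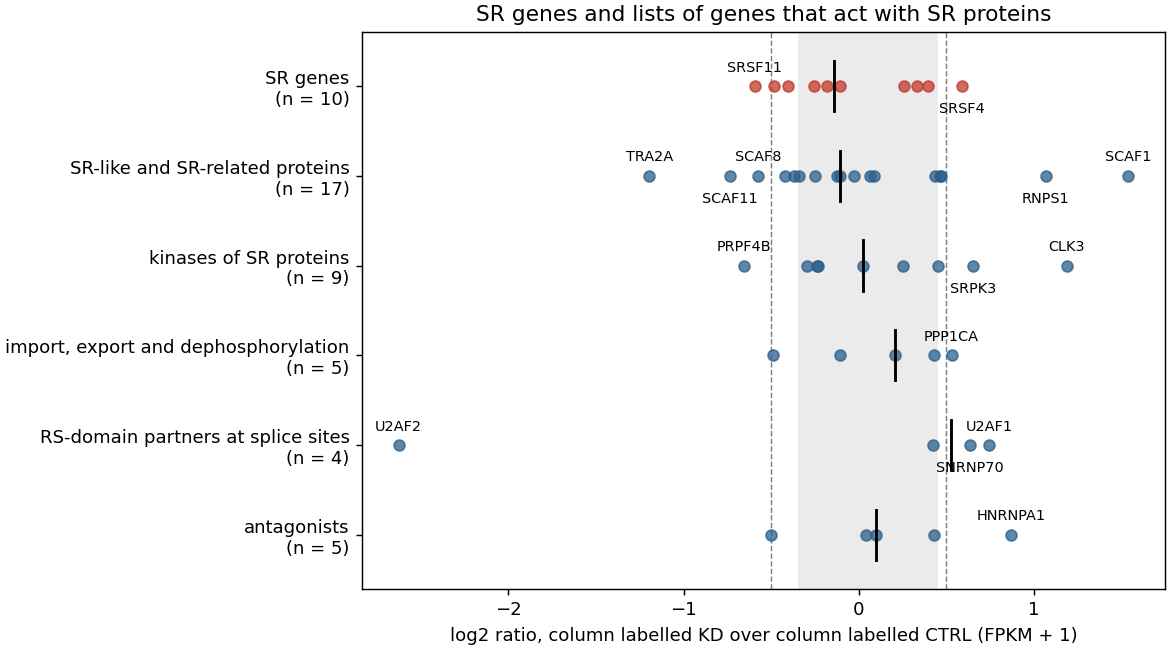
Log2 ratio of FPKM + 1, KD over CTRL (horizontal axis), for the SR genes and 5 lists of genes that act with SR proteins, 1 point per gene, with a black bar at each list's median. The grey band holds the quartiles of all genes, and dashed lines mark 0.5 in each direction, with names for the genes past them. The SR genes span -0.59 to 0.59, a narrower range than the SR-like proteins (-1.20 to 1.54) or the splice-site partners (-2.63 to 0.75).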

How the data were processed

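The libraries were made with a TruSeq RNA kit, sequenced as 100 nt pairs, mapped by the authors with TopHat 1.4.1 to hg19 with Ensembl transcripts, and summarised with Cuffdiff 2.2.0. The deposited table holds 1 FPKM value per gene and group, scaled by the authors to transcript length and mapped fragments, and 1 estimated count per gene and group that need not be whole. The way the 3 libraries per group were merged is not given in the sources used here. The authors' own fold changes, p-values, FDR, average, highest and lowest FPKM are also in the table and were not used.

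From these values the log2 ratio of FPKM with a pseudocount of 1 was computed for the 13741 genes whose mean FPKM was 1 or more. Intervals are 95% exact Poisson (levels) and Clopper-Pearson (ratios, on the FPKM ratio without the pseudocount) and cover counting error only. They treat the estimated counts as raw counts, which could not be checked. Linear models across libraries (limma) were planned for values per library and were not possible with a single value for each group. Likewise no measure of likeness to other genes' patterns was computed, and protein sequences were not analysed. All 10 members are named. In the other lists, the rule named genes past a log2 ratio of 0.5, and CLK1, CLK2, CLK4, SRPK1, SRPK2, TNPO3, NXF1, TRA2B, SRSF8, SRRM2, ZRSR2 and HNRNPA2B1 were named after their values were seen. The members and lists were chosen with earlier results of these data known. Alternatives were a pseudocount of 0.1, no filter, FPKM over 5 in a column, centring on the median, counts divided by column totals, removal of a fitted second-order trend in GC and log2 length, and the level filter named above. Exon models were those of GENCODE release 44 on GRCh37, and sequences were read from that build. The C-rich consensus was searched on the RNA strand. 1 erythroid marker of the planned list is not reported here. The functions were tested on simulated data. The software was scipy 1.17.1, pandas 2.3.3, numpy 2.4.6 and matplotlib 3.10.9 under Python 3.11.15.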

Additional observations from a re-analysis of the deposited data

How the results depend on the processing

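The values rest on 1 column per group, so leaving out a library and fits per library were not run. No paired analysis was possible because each group has a single value per gene. The median log2 ratio of the SR genes, -0.14, became -0.34 with counts over column totals and 0.00 with the GC and length trend removed (0.0025 before rounding). SR genes higher by 0.5 numbered 1, or 0 with counts over totals and 2 with the trend removed. SR genes lower by 0.5 numbered 1, or 3 with counts over totals, 2 when centred on the median of all genes and 0 with the trend removed. Over all genes, those past 0.5 were 3106 higher and 2211 lower, but 2444 higher and 4361 lower with counts over totals. Among genes at least as abundant as SRSF4, an alternative chosen after seeing the data, 742 were higher and 187 lower by 0.5, and 301 higher and 30 lower by 1. Genes higher by 1 numbered 1169, or 658 with the trend removed. Genes lower by 1 numbered 450, or 791 with a pseudocount of 0.1, 1377 with counts over totals and 292 with FPKM over 5. The sign of the SR median differed only with the trend removed, among the alternatives run. Also recomputed were the ratios of single SR genes, PCBP1 and PCBP2, the ranks of SR genes and the counts of the other lists. Of these, 49 moved past their counting interval, their rank or 1.5 times their count, and 79 did not. Filters leave the ratios of SR genes as they were by construction, and a pseudocount of 0.1 moved them by at most 0.01. The order of SR levels is less firm: with counts per annotated kilobase in place of FPKM, 3 of 10 genes kept their rank in CTRL and 1 of 10 in KD.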
